A study of Homo sapiens with 8 samples.

Results

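The mRNAs of 6 genes that make, process and destroy histone messages were followed through an hnRNP U immunoprecipitation (IP) in interphase and in mitosis. The genes, SLBP, NPAT, LSM10, LSM11, CASP8AP2 and ERI1, were chosen by name for the role of their products, with earlier results of these data known. All 6 were found among the 13471 genes of the gene table. hnRNP U, also called SAF-A, is an abundant nuclear protein that binds RNA and DNA. The cells were hTERT-RPE1, an established human line derived from retinal pigment epithelium and carrying a telomerase transgene. The 8 libraries formed 4 groups of 2: interphase cells without IP, interphase cells after IP using an antibody to hnRNP U, mitotic cells without IP, and mitotic cells with IP. All 4 groups had been exposed to thymidine, which stalls DNA replication, at 2 mM for 24 h. The mitotic groups then had 6 h without thymidine and an overnight exposure to STLC, which blocks the spindle motor Eg5. Interphase here thus means cells held in thymidine, and phase cannot be told apart from release and STLC in any comparison below. No control-antibody IP was analysed here, so binding by hnRNP U and carry-over on beads cannot be told apart.

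Most mRNAs end in a poly(A) tail, but the mRNAs of the replication-dependent histones end in a short stem-loop. NPAT, a substrate of cyclin E-CDK2, switches on the histone genes at the onset of replication, and CASP8AP2, also called FLASH, works beside it in the histone locus body and brings the cleavage machinery to the new transcript. SLBP holds the stem-loop, LSM10 and LSM11 are the Sm-like proteins particular to the U7 snRNP, whose RNA pairs with the pre-mRNA just downstream, and ERI1 is a 3′ exonuclease that binds the same stem-loop and takes part in the decay of histone mRNA when replication stops. The stem-loop is shown because it is the shared target of SLBP and ERI1. It was searched as GGNNNTTNNNANNNCC on the sense strand, with the first and last 6 bases required to pair exactly, in the GENCODE 29 transcripts (GRCh38) of the 40 replication-dependent histone genes in the table. It was found in annotated coding transcripts of 17 of these genes, in 4 forms, and in 0 annotated coding transcripts of the 6 genes themselves. Counted by transcript and not by gene, 0.283% of 83129 protein-coding transcripts held it. The search misses a stem with a mismatch and a transcript annotated to end before the stem-loop. A histone gene with no match was therefore not shown to lack it. One gene for each form is given, with capitals marking the arms of the stem.
HIST1H2AE: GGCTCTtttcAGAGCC
HIST1H4B: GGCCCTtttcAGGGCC
HIST1H2BC: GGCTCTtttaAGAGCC
HIST1H3E: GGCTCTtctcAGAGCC
The first form was found in 11 genes, the second in 3, the third in 2 and the last in 1. All 4 examples lie on chromosome 6, at chr6:26217417-26217432 (+ strand) for HIST1H2AE, chr6:26026901-26026916 (- strand) for HIST1H4B, chr6:26123472-26123487 (- strand) for HIST1H2BC and chr6:26225596-26225611 (+ strand) for HIST1H3E, 51, 86, 116 and 5 bases before the end of the annotated transcript.

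Values are FPKM, in which fragment counts are divided by transcript length and by library size, a scale on which genes of different length can be compared. A fold change is a difference of log2(FPKM + 1), tested with limma over all 13471 genes, and a call is a Benjamini-Hochberg adjusted p below 0.05. On this scale the r between replicates, over genes, was 0.9894 to 0.9945 (Pearson). The depth is unknown: a step of 1 fragment was looked for in 1426 genes below 1 FPKM in every library, and the most common step relative to the first library was shared by only 39 to 94 of them. In the libraries without IP 58.4% to 63.0% of the FPKM sum lay in 10 genes, and in the IP 12.4% to 20.6%. The labels do not say that replicates came from separate cultures, so p-values measure the spread between these libraries, which may be technical. Phase markers followed the labels: the summed level of CCNB1, CDC20, PLK1, CENPF and AURKA was 114 to 122 FPKM in interphase and 448 to 484 FPKM in mitosis without IP. Of 12 markers of retinal pigment epithelium only MITF, OTX2, RDH5 and PMEL could be analysed here. The 4 summed to 24.6 to 25.3 FPKM in interphase and 14.8 to 15.4 FPKM in mitosis without IP. After IP they summed to 50.1 to 57.2 and 25.1 to 26.5 FPKM. Means in interphase without IP were 9.59 (MITF), 8.54 (OTX2) and 6.66 FPKM (RDH5), while PMEL stayed at or below 0.144 FPKM in every library. The mesenchymal markers in the table, 5 of 6, summed to 2166 to 2356 FPKM in interphase and 1713 to 1780 FPKM in mitosis without IP, and to 2406 to 2488 and 1045 to 1224 FPKM after IP. The keratin list, 2 of 4, summed to 114 to 122 and 94.8 to 100.2 FPKM without IP and to 46.7 to 51.3 and 44.6 to 50.2 FPKM after it. CD68, the 1 blood marker of 3, had 10.5 to 12.2 FPKM without IP and 3.00 to 9.18 FPKM after it. The neuronal list, 2 of 3, summed to 82.3 to 96.1 and 22.0 to 33.3 FPKM. In interphase and mitosis without IP, TUBB3 had means of 84.5 and 94.0 FPKM and SNAP25 of 2.05 and 0.628 FPKM. Mesenchymal means in interphase without IP were 1809 (VIM), 275 (FN1), 139 (THY1), 36.9 (CDH2) and 1.06 FPKM (COL1A1). The part of other cells in the results was not tested.

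The 6 mRNAs differed in level before any IP. In interphase without IP, SLBP stood highest at 40.4 ± 0.738 FPKM (mean ± SD, n = 2, as for each value below), above 87.7% of all genes. LSM10 (9.66 ± 1.22 FPKM) and ERI1 (8.91 ± 0.426 FPKM) followed with overlapping replicates. CASP8AP2 (4.66 ± 1.43 FPKM) and NPAT (4.42 ± 0.00187 FPKM) also overlapped, and LSM11 was lowest at 3.25 ± 0.371 FPKM. The median over all genes in this group was 6.67 FPKM. So the mRNA of the stem-loop binding protein exceeded those of the other genes of the 6, LSM10 included, in both libraries. In the mitotic IP the order was different, with ERI1 first (32.1 ± 5.53 FPKM), SLBP second (14.5 ± 0.366 FPKM) and LSM10 last (4.01 ± 0.695 FPKM).

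**Figure D1:**
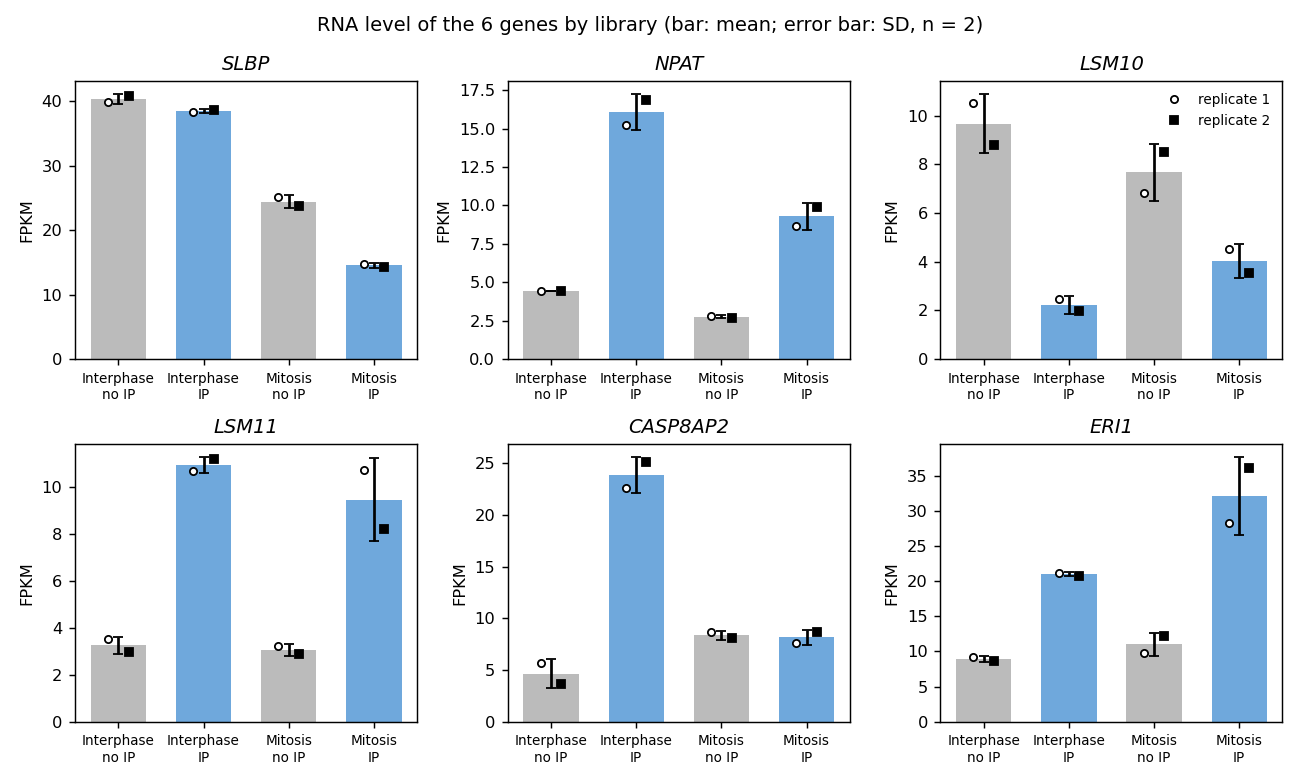
FPKM (y axis) of each of the 6 genes in the 4 groups (x axis), with bars for the mean, error bars for the SD (n = 2), open circles for replicate 1 and filled squares for replicate 2. NPAT, LSM11 and ERI1 are higher in the IP in both phases, CASP8AP2 in interphase, and SLBP is lowest in the mitotic IP at 14.5 FPKM.

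The first question was which of these mRNAs were enriched with hnRNP U in interphase. CASP8AP2, NPAT, LSM11 and ERI1 were higher in the IP, LSM10 was lower, and SLBP did not pass the test. These are 5 calls among 6 genes, where 74.6% of all genes were called (37.6% higher and 37% lower), so the count alone is no result about the 6. Their median log2 fold change was 1.32, against 0.02 over all genes. It was 0.57 (all genes 0.07) without trends on transcript length and GC content and 2.96 (all genes 1.24) when the libraries were set to equal FPKM sums.

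Among the factors of the histone locus body, CASP8AP2 moved most. It lies on chromosome 6 (89829894 to 89874436, + strand, protein-coding). Its level was 5.68 and 3.65 FPKM in the 2 libraries without IP and 22.6 and 25.1 FPKM in the IP. Both IP libraries lay far above both libraries without IP, although the latter differed from each other more than those of any other of these genes in this group relative to their mean. The log2 fold change was 2.16 (SE 0.17, limma adjusted p 4.52e-06), larger than that of 99.5% of all genes. NPAT lies on chromosome 11 (108157215 to 108222642, - strand, protein-coding). It rose from 4.42 and 4.42 FPKM to 15.2 and 16.9 FPKM, with no overlap. Its log2 fold change was 1.65 (SE 0.12, adjusted p 2.53e-06).

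The 2 proteins that distinguish the U7 snRNP had mRNAs that went opposite ways. LSM11, on chromosome 5 (157743695 to 157760709, + strand, protein-coding), had 3.51 and 2.98 FPKM without IP, compared with 10.7 and 11.2 FPKM after IP. Both IP libraries were higher, by a log2 fold change of 1.49 (SE 0.14, adjusted p 1.62e-05). LSM10 lies on chromosome 1 (36391238 to 36397892, - strand, protein-coding), and its values cover 36393419 to 36397959. It had 10.5 and 8.80 FPKM without IP, compared with 2.48 and 1.95 FPKM after IP. It was the one gene of the 6 called lower, with a log2 fold change of -1.73 (SE 0.16, adjusted p 1.38e-05), and the groups did not overlap.

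The 2 stem-loop binding proteins also differed. ERI1 lies on chromosome 8 (9002147 to 9116746, + strand, protein-coding), and its values cover only 9002803 to 9033339. It had 9.21 and 8.60 FPKM without IP, compared with 21.2 and 20.8 FPKM after IP. It was higher in both IP libraries, by a log2 fold change of 1.15 (SE 0.14, adjusted p 6.64e-05). SLBP, on chromosome 4 (1692800 to 1712555, - strand, protein-coding), had 39.8 and 40.9 FPKM without IP, compared with 38.3 and 38.7 FPKM after IP. Its IP libraries were just below the others. Its log2 fold change was -0.07, with a 95% interval of -0.27 to 0.13 and an adjusted p of 0.511. Other scalings changed some of these directions. Rescaling each library to the same FPKM sum moved the median over all genes from 0.02 to 1.24 and put SLBP at 1.64 (adjusted p 1.94e-06) and LSM10 at -0.35 (adjusted p 0.146), so SLBP then lay above that median and LSM10 below it. When smooth trends on GC content and transcript length were taken out, this put SLBP at 0.69 (adjusted p 0.000144), LSM10 at 0.18 (adjusted p 0.333) and ERI1 at 0.22 (adjusted p 0.163). Without the trends NPAT (0.45, adjusted p 0.00445), LSM11 (0.74, adjusted p 0.00152) and CASP8AP2 (0.88, adjusted p 0.00102) were called higher with smaller values.

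The effect of the IP followed GC content over the whole table, so the composition of the 6 transcripts is given beside it. Their longest annotated transcripts hold 37.1% GC (CASP8AP2, 6719 nt), 37.4% (NPAT, 6117 nt), 39.7% (ERI1, 5036 nt), 44.3% (LSM11, 6584 nt), 50.7% (SLBP, 1977 nt) and 58.3% (LSM10, 1006 nt). The median over all matched genes was 47.6% GC and 3614 nt. The longest annotated transcript may not be the form expressed here, in particular for LSM10, SLBP and ERI1. The values without length and GC trends rest on this choice of transcript. LSM10 thus has the shortest and most GC-rich transcript of the 6 and the lowest log2 fold change in interphase, and CASP8AP2 the most AT-rich and the highest. In interphase the genes were divided into 10 bins by GC content, and the bin of NPAT and CASP8AP2 had a median log2 fold change of 1.06, that of ERI1 0.94, that of LSM11 0.44, that of SLBP -0.34 and that of LSM10 -1.06. CASP8AP2, at 2.16, and LSM11, at 1.49, lay farthest above the median of their bin. The part of GC content and length in these results was not tested.

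**Figure D2:**
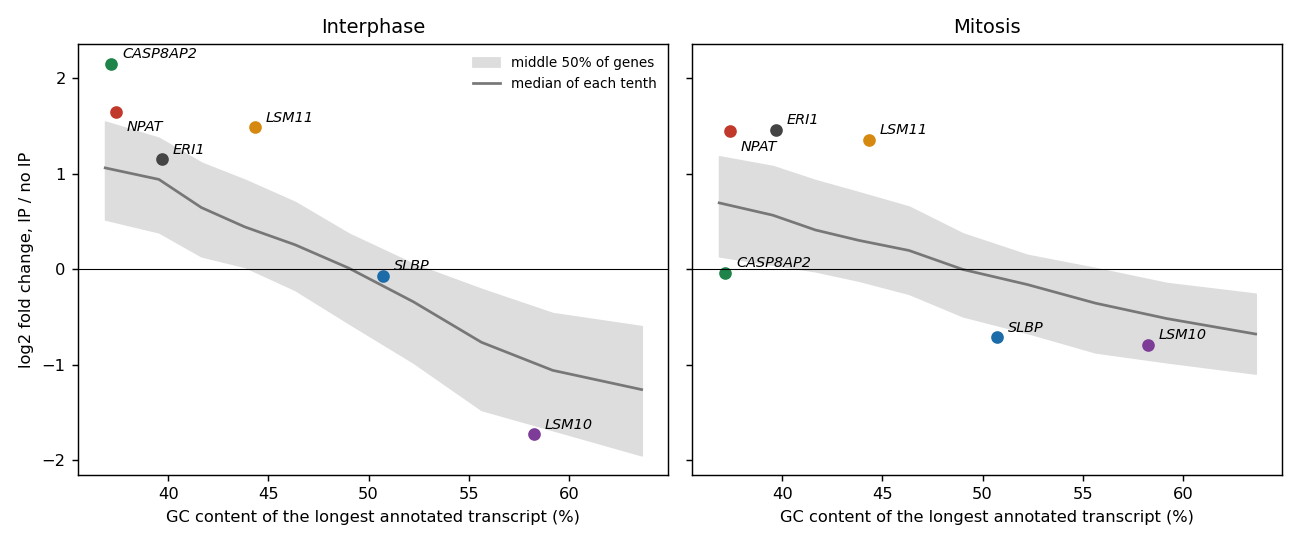
Log2 fold change of the IP (y axis) against GC content of the longest annotated transcript in percent (x axis) in interphase and in mitosis. The line joins the medians of 10 bins of all matched genes, the band holds the middle part, between quartiles, of each bin, and coloured points are the 6 genes. CASP8AP2 lies above the band in interphase (2.16) and below it in mitosis (-0.03).

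In mitosis the same comparison gave NPAT, LSM11 and ERI1 higher in the IP and SLBP and LSM10 lower, while CASP8AP2 did not pass the test. Of all genes 64.5% were called (32.8% higher and 31.7% lower), so 5 of 6 is again near what the table gives. The median of the 6 was 0.66, against 0.01 over all genes. It was 0.40 without the length and GC trends and 1.97 with equal FPKM sums, where the medians over all genes were 0.06 and 1.00.

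ERI1 went from 9.84 and 12.1 FPKM in the libraries without IP to 28.2 and 36.0 FPKM in the IP. Its groups did not overlap, and the log2 fold change was 1.46 (SE 0.14, limma adjusted p 3.24e-05). NPAT went from 2.82 and 2.70 FPKM to 8.67 and 9.90 FPKM (log2 fold change 1.45, SE 0.12, adjusted p 1.47e-05). LSM11 went from 3.24 and 2.87 FPKM to 10.7 and 8.20 FPKM (log2 fold change 1.36, SE 0.14, adjusted p 5.57e-05). The 3 fold changes lay within 1 SE of each other, and above those of 95.3% to 96.7% of all genes. Without the length and GC trends they were 0.94 for ERI1 (adjusted p 0.000252), 0.76 for NPAT (adjusted p 0.000232) and 0.99 for LSM11 (adjusted p 0.000286), all still called higher.

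SLBP, unlike in interphase, was called lower in the mitotic IP. It had 25.2 and 23.7 FPKM without IP, compared with 14.8 and 14.3 FPKM after IP, with no overlap and a log2 fold change of -0.71 (SE 0.09, adjusted p 0.00013). LSM10 had 6.83 and 8.50 FPKM without IP, compared with 4.50 and 3.52 FPKM after IP, a log2 fold change of -0.79 (SE 0.16, adjusted p 0.00247). Its replicate pairs gave -0.51 and -1.07, the same sign with different sizes. CASP8AP2 had 8.67 and 8.08 FPKM without IP, compared with 7.67 and 8.66 FPKM after IP. The groups overlapped, the log2 fold change was -0.03, and its 95% interval ran from -0.42 to 0.35 (adjusted p 0.87). With equal FPKM sums, which moved the median over all genes to 1.00, SLBP (0.66, adjusted p 0.00454), LSM10 (0.44, adjusted p 0.0798) and CASP8AP2 (1.28, adjusted p 0.000219) changed sign. With the length and GC trends removed, LSM10 was at 0.03 (adjusted p 0.859) and CASP8AP2 at -0.75 (adjusted p 0.00254).

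Whether the effect of the IP differed between the phases was tested directly as an interaction. The log2 fold change was lower in mitosis for CASP8AP2 and SLBP and higher for LSM10, 3 calls of 6, where 47.1% of all genes were called (27.2% higher and 19.9% lower). The median of the 6 was -0.17, against 0.07 over all genes, but it turned to 0.05 without the length and GC trends and was -0.49 with equal FPKM sums. For CASP8AP2 the FPKM ratios of IP to no IP, by replicate number, were 3.98 and 6.88 in interphase and 0.884 and 1.07 in mitosis. The difference was -2.19 (SE 0.24, limma adjusted p 0.000188), lower than that of all but 0.5% of genes. It was -1.98 and -2.40 in the replicate pairs and -1.63 (adjusted p 0.000642) with the length and GC trends removed. For SLBP the ratios were 0.961 and 0.946 in interphase and 0.588 and 0.602 in mitosis. Its difference was -0.64 (SE 0.13, adjusted p 0.00316), and -1.19 (adjusted p 0.00022) without the trends. For LSM10 the ratios were 0.236 and 0.222 in interphase and 0.659 and 0.414 in mitosis, closer to 1 in mitosis. Its difference was 0.94 (SE 0.23, adjusted p 0.00997), and it was lost both without the trends (-0.15, adjusted p 0.615) and with equal FPKM sums (0.79, adjusted p 0.0553).

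For the other 3 genes no difference between phases passed the test. NPAT had -0.20 (95% interval -0.58 to 0.17, adjusted p 0.342), LSM11 -0.13 (-0.60 to 0.33, adjusted p 0.625) and ERI1 0.31 (-0.14 to 0.76, adjusted p 0.23). Without the length and GC trends, ERI1 had a difference of 0.72 (adjusted p 0.0127), and those of NPAT (0.31, adjusted p 0.113) and LSM11 (0.26, adjusted p 0.323) changed sign.

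**Figure D3:**
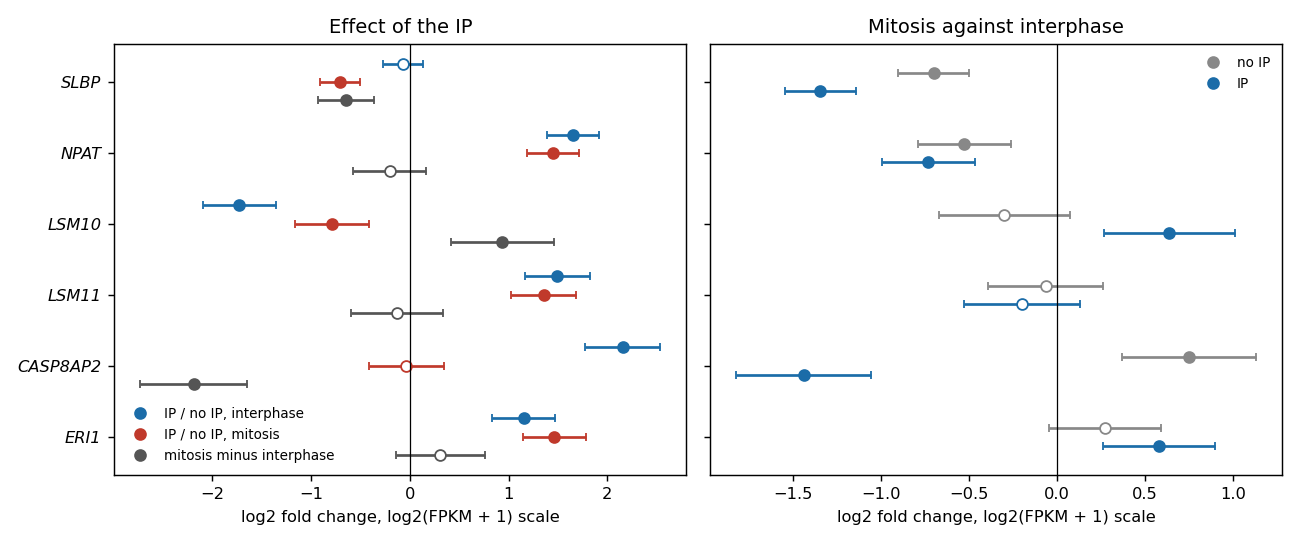
Log2 fold changes (x axis) of the 6 genes (y axis), with 95% confidence intervals from limma. The left panel shows the effect of the IP in each phase and their difference and the right panel mitosis against interphase without and with IP. Filled points have an adjusted p below 0.05. CASP8AP2 has the largest difference between phases, at -2.19.

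Mitosis was then compared with interphase for the level of each mRNA without IP. SLBP and NPAT were lower in mitosis and CASP8AP2 was higher, 3 calls of 6 against 51.7% of all genes (26.2% higher and 25.5% lower). The median of the 6 was -0.18 (-0.12 without the length and GC trends), against -0.0023 over all genes. In bulk samples, fewer cells with an mRNA and less of it per cell cannot be told apart. SLBP fell from 40.4 ± 0.738 to 24.4 ± 1.01 FPKM (log2 fold change -0.70, SE 0.09, limma adjusted p 0.000332). NPAT fell from 4.42 ± 0.00187 to 2.76 ± 0.0802 FPKM (log2 fold change -0.53, SE 0.12, adjusted p 0.00519). For both, all interphase libraries lay above all mitotic ones. CASP8AP2 rose from 4.66 ± 1.43 to 8.38 ± 0.422 FPKM, by 0.75 on the log2 scale (SE 0.17, adjusted p 0.00569), and this value ranged from 0.49 to 1.01 with 1 library left out.

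The other 3 did not pass the test without IP. LSM10 had a log2 fold change of -0.30 (95% interval -0.67 to 0.07, adjusted p 0.154), LSM11 of -0.07 (-0.39 to 0.26, adjusted p 0.734) and ERI1 of 0.27 (-0.05 to 0.59, adjusted p 0.137). The replicate pairs of LSM10 were apart, at -0.56 and -0.04. With equal FPKM sums the call for NPAT was lost (-0.53, adjusted p 0.0608). NPAT was at -0.79 (adjusted p 0.000303) and CASP8AP2 at 0.46 (adjusted p 0.0324) without the length and GC trends.

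The histone mRNAs themselves changed on another scale. Without IP, mitosis had lower levels of all 40 replication-dependent histone genes (median log2 fold change -6.13), and their summed level was 21604 and 22603 FPKM in interphase and 293 and 311 FPKM in mitosis. Over the same libraries SLBP went from 40.4 to 24.4 FPKM. Near-identical copies make the values of single histone genes uncertain.

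In the IP, SLBP, NPAT and CASP8AP2 were lower in mitosis and LSM10 and ERI1 higher, 5 calls of 6 against 61.4% of all genes (35.8% higher and 25.6% lower). The median of the 6 was -0.47, against 0.08 over all genes. It was -0.25 without the length and GC trends and -0.80 with equal FPKM sums. The comparison shares its libraries with the others. SLBP fell from 38.5 ± 0.273 to 14.5 ± 0.366 FPKM (log2 fold change -1.35, SE 0.09, limma adjusted p 4.78e-06). CASP8AP2 fell from 23.9 ± 1.76 to 8.16 ± 0.7 FPKM (log2 fold change -1.44, SE 0.17, adjusted p 9.72e-05), although its level without IP was higher in mitosis. NPAT fell from 16.1 ± 1.18 to 9.29 ± 0.874 FPKM (log2 fold change -0.73, SE 0.12, adjusted p 0.000593), and the fold change was -0.48 without the length and GC trends (adjusted p 0.00293). ERI1 rose from 21.0 ± 0.308 to 32.1 ± 5.53 FPKM, by 0.58 (SE 0.14, adjusted p 0.00609), and LSM10 from 2.22 ± 0.373 to 4.01 ± 0.695 FPKM, by 0.64 (SE 0.16, adjusted p 0.00832). LSM11, at 10.9 ± 0.345 and 9.45 ± 1.77 FPKM, overlapped between phases, with a log2 fold change of -0.20 (95% interval -0.53 to 0.13, adjusted p 0.261). The calls for the 2 genes that rose were less firm. That for LSM10 was lost without replicate 1 of the mitotic IP (0.50, adjusted p 0.0577), without replicate 2 of the interphase IP (0.52, adjusted p 0.0569), with the length and GC trends removed (0.07, adjusted p 0.704) and with equal FPKM sums (0.48, adjusted p 0.0732), and that for ERI1 after quantile normalization (0.36, adjusted p 0.0514) and with equal FPKM sums (0.28, adjusted p 0.327).

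NPAT starts next to ATM, the gene of a kinase of the DNA damage response, and the 2 genes run in opposite directions. RefSeq places their starts 429 bases apart on chromosome 11, while GENCODE starts ATM at 108222484, inside NPAT. The values of ATM cover an interval from 108222831, which does not overlap that of NPAT. Both mRNAs were higher in the IP in each phase. ATM had 3.93 ± 0.139 FPKM without IP and 17.4 ± 0.652 FPKM with it in interphase (log2 fold change 1.90, SE 0.13, limma adjusted p 2.26e-06) and 7.14 ± 0.82 and 22.0 ± 3.33 FPKM in mitosis (1.49, adjusted p 2.19e-05). Without IP they moved in opposite directions between phases, ATM by 0.72 (SE 0.13, adjusted p 0.002) and NPAT by -0.53. With those trends removed ATM was at 0.53 (adjusted p 0.00673) in the interphase IP, 0.83 (adjusted p 0.000561) in the mitotic IP and 0.37 (adjusted p 0.0412) in mitosis without IP, and with equal FPKM sums at 3.55, 2.86 and 0.69. The 250 bases before the NPAT start are shown because they lie between the RefSeq starts of the pair. Those before the CASP8AP2 start are shown because its RNA was higher in mitosis without IP, although in the IP it was lower. Both come from RefSeq (GRCh38.p14), chr11:108222639-108222888 on the - strand and chr6:89829630-89829879 on the + strand, with capitals marking CCAAT boxes (CCAAT, both strands, so ATTGG where it lies on the other strand) and words of the E2F type (TTTCGCGC, TTTGGCGC, TTTCCCGC or TTTGCCGC, both strands).
NPAT: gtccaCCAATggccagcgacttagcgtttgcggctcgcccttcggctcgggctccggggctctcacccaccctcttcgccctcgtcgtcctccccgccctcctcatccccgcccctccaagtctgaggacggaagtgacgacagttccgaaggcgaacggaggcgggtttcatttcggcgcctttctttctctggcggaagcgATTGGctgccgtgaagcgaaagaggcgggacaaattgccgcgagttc
CASP8AP2: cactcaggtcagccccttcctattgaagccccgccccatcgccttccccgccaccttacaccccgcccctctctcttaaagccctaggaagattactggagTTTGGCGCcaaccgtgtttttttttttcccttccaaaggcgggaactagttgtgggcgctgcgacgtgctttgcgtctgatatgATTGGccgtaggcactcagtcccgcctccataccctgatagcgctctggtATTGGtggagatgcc
The NPAT window holds 2 CCAAT boxes and 0 of the E2F words, and the CASP8AP2 window holds 2 and 1. Among 35116 RefSeq windows of the same length, 32.0% hold a CCAAT box and 2.8% an E2F word. Of the other members searched, SLBP and LSM11 hold neither and LSM10 holds 1 CCAAT box. ERI1 was left out of this search, so nothing is given for its promoter. These matches are descriptions of the sequence.

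For each of the 6 genes the 3 genes with the most similar values were taken by Pearson's r over the 8 libraries, among 11271 genes with a mean of at least 1 FPKM. The libraries form 4 groups, so high values of r are common. The genes nearest to SLBP were SEPT6 (r = 0.995), NEK6 (0.994) and BAIAP2L1 (0.993). NEK6, a kinase of mitotic progression, had group means of 42.2, 40.2, 22.1 and 13.7 FPKM in interphase without and with IP and in mitosis without and with IP. CASP8AP2 was closest to RNF6 (r = 0.998), GPATCH11 (0.987) and CAMSAP2 (0.986), and RNF6 likewise was highest in the interphase IP, at 50.9 FPKM against 19.4 to 27.7 FPKM in the other groups. Both had few near neighbours, with 73 genes each at r above 0.95, against 475 for NPAT, 575 for LSM11, 604 for ERI1 and 822 for LSM10. NPAT was nearest to SLC25A51, ZFP90 and NAB1 (r = 0.997 to 0.998), LSM11 to LACC1, BACH1 and MMAA (0.996 to 0.999), ERI1 to TMTC2, RECQL and TMEM161B (0.996 to 0.998), and LSM10 to KEAP1, DAD1 and H2AFZ (0.994). H2AFZ encodes a histone variant made outside replication, with a mean level in interphase of 688 FPKM before and 275 FPKM after IP. Within the set, NPAT and LSM11 were most alike (r = 0.941) and LSM10 ran opposite to NPAT (-0.919) and LSM11 (-0.915).

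A list of 57 further genes of histone mRNA metabolism, of which 55 were in the table, was set beside the 6. In interphase after IP, 21 of the 55 were higher and 22 lower (median log2 fold change -0.02), near the 37.6% and 37% of all genes. In the mitotic IP 22 were higher and 26 lower (-0.06), beside 32.8% and 31.7% of all genes. In mitosis without IP 26 were higher and 8 lower (0.31), beside 26.2% and 25.5%. These shares over all genes apply to each list below, and call rates near them are no result about a list. With equal FPKM sums the 3 pairs of counts became 42 and 6, 36 and 5, and 16 and 3, where 70.9% and 8.34%, 71.8% and 2.09%, and 16.7% and 16.4% of all genes were called, so the directions in the IP below are those of the deposited scale.

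Of 10 transcription partners, the interphase IP held 5 at higher and 3 at lower levels, 8 of 10 called where 74.6% of all genes were. POU2F1, the octamer-binding factor of histone H2B promoters, had 2.06 and 2.04 FPKM without IP, compared with 10.6 and 11.3 FPKM after IP (log2 fold change 1.97). COIL, the coilin of Cajal bodies, rose by 1.21 on the log2 scale, while E2F1, an activator of replication genes, fell from 17.6 ± 1.02 to 3.94 ± 0.196 FPKM (-1.91). POU2F1 was at 0.80, COIL at 0.96 and E2F1 at -0.59 without the length and GC trends, all still called, and with equal FPKM sums E2F1 was not called (-0.40, limma adjusted p 0.0612). In mitosis without IP 4 of the 10 were higher and 3 lower. CCNE1, the cyclin that activates CDK2 toward NPAT, fell from 4.03 ± 0.261 to 0.689 ± 0.163 FPKM (-1.58), as did CCNE2 (-2.18), whose file interval is shared with INTS8.

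Of 9 partners in 3′ end processing, the interphase IP held 4 at higher and 3 at lower levels, which is near the share of all genes. CPSF2, a subunit of the histone cleavage complex, rose from 19.1 ± 1.23 to 53.2 ± 1.20 FPKM (log2 fold change 1.43) and in mitosis from 25.3 ± 2.13 to 83.6 ± 6.46 FPKM (1.69). Its interphase call was lost without the length and GC trends (0.05, adjusted p 0.68), while in mitosis it was at 1.02 (adjusted p 6.22e-05). SRRT, also called ARS2, which links the cap to 3′ processing, fell in the mitotic IP from 13.6 ± 0.146 to 3.37 ± 0.478 FPKM (-1.75), and its difference between phases was -1.19 (limma adjusted p 0.00256). With equal FPKM sums SRRT was at -0.53 in the mitotic IP (adjusted p 0.0434). NELFE fell in both phases, but its file interval is shared with SKIV2L and with equal FPKM sums its mitotic call was lost (-0.17, adjusted p 0.465).

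The 5 Sm proteins that the U7 snRNP shares with spliceosomal snRNPs were mostly lower in the interphase IP, as LSM10 was, with 4 lower and 0 higher (median log2 fold change -2.03), where 37% of all genes were lower. Without the length and GC trends 4 were lower and 1 higher (-1.10, all genes 0.07), where 27.9% of all genes were lower and 33.7% higher. With equal FPKM sums 2 were lower and 1 higher (-0.45, all genes 1.24), where 8.34% of all genes were lower and 70.9% higher. In the mitotic IP 3 were lower and 1 higher. SNRPF fell from 47.2 ± 2.43 to 4.18 ± 0.73 FPKM (-3.22). SNRPB fell from 146 ± 19.4 to 30.0 ± 3.99 FPKM in interphase (-2.25) and rose from 190 ± 1.75 to 273 ± 9.76 FPKM in mitosis. Its difference between phases was 2.77 (SE 0.20, adjusted p 5.28e-05). When these trends were removed SNRPB was at -0.44 in the interphase IP (adjusted p 0.0147) and 1.29 in the mitotic IP, with a difference of 1.72 (adjusted p 0.000229), and with equal FPKM sums it was at -0.55 in the interphase IP (adjusted p 0.043).

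Of 16 genes of the decay list, the interphase IP held 7 at higher and 5 at lower levels, and 5 and 10 in the mitotic IP. The 12 of 16 called in interphase are at the share of all genes, 74.6%, and in mitosis 31.7% of all genes were lower. LSM7, LSM2 and LSM4, subunits of the LSM ring that binds oligouridylated tails, fell in the IP, with log2 fold changes of -3.47, -2.47 and -2.11 in interphase and -2.27, -1.99 and -2.04 in mitosis. These became -1.22, -0.77 and -0.62, and -1.16, -1.27 and -1.41, without the length and GC trends, all called, and with equal FPKM sums LSM4 was not called in interphase (-0.42, adjusted p 0.0677). In the same ring LSM3 (-1.16) and LSM6 (-1.07) were also lower in the interphase IP. LSM5 was not called there (-0.11), but was called lower without the trends (-0.63). LSM1 was called higher in interphase (0.31, and 1.34 without the trends) and lower in mitosis (-0.44). The largest rise of the list in interphase was that of XRN1 (2.07, and 0.63 without the trends). ZCCHC6, a uridylyl transferase acting on histone mRNA, had 2.60 ± 0.0151 FPKM without IP, compared with 6.88 ± 0.00458 FPKM after IP in interphase, and 4.07 ± 0.285 and 2.72 ± 0.175 FPKM in mitosis, a difference between phases of -1.57 (SE 0.16, adjusted p 0.000142), of the same sign as that of CASP8AP2. This difference was -1.15 (adjusted p 0.000626) without the length and GC trends, where the interphase call for ZCCHC6 was lost (0.20, adjusted p 0.13). With equal FPKM sums its mitotic value changed sign, from -0.44 to 0.71 (adjusted p 0.00386). EXOSC10, an exonuclease of the nuclear exosome, had a difference of -1.67 (adjusted p 0.000279).

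Among 6 export and translation partners, the interphase IP held 0 at higher and 3 at lower levels. With equal FPKM sums it held 4 at higher and 0 at lower levels, where 70.9% and 8.34% of all genes were. EIF4G1, the scaffold of translation initiation, fell in the mitotic IP from 65.7 ± 6.12 to 19.4 ± 0.283 FPKM (log2 fold change -1.71), a call lost with equal FPKM sums (-0.32, adjusted p 0.189). Of 9 genes of SLBP turnover, 5 were higher and 4 lower in interphase after IP, and 5 were higher and 1 lower in mitosis without IP, where 26.2% and 25.5% of all genes were. The interphase counts became 2 and 3 without the length and GC trends, where 33.7% of all genes were higher and 27.9% lower. The median of the 9 moved from 0.34 to 0.0053, and that over all genes from 0.02 to 0.07. CDK1, whose activity with cyclin A marks SLBP for destruction at the end of replication, rose from 59.5 ± 2.62 to 226 ± 0.868 FPKM (1.91), and CCNF, the cyclin F that targets SLBP in G2, rose from 10.6 ± 0.819 to 31.3 ± 1.20 FPKM (1.48). FEM1B and FEM1C, substrate receptors of a ubiquitin ligase, rose in the interphase IP by 1.88 and 1.35. With the trends removed FEM1B was at 0.78 (limma adjusted p 0.000343) and the call for FEM1C was lost (0.23, adjusted p 0.0533).

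**Figure D4:**
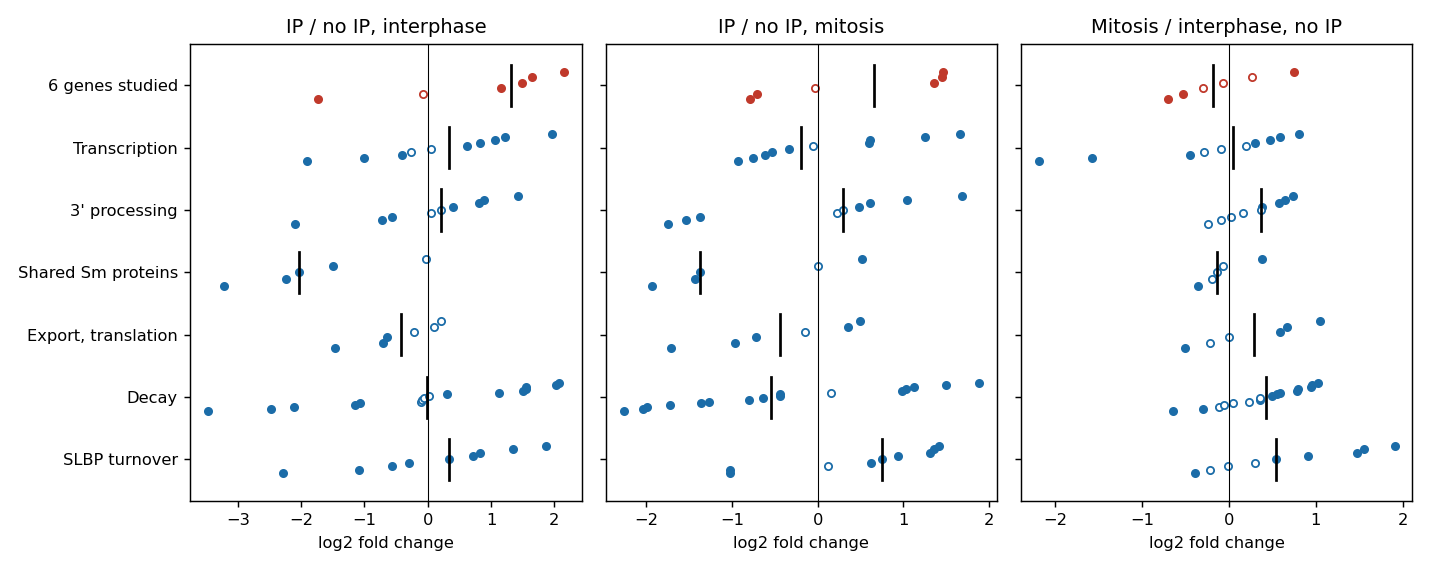
Log2 fold change (x axis) of each gene in the lists of histone mRNA metabolism (y axis) for the IP in interphase, the IP in mitosis, and mitosis against interphase without IP. Filled points have a limma adjusted p below 0.05, the 6 genes are in red, and black bars are list medians. The shared Sm proteins have the lowest median in interphase, at -2.03.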

How the data were processed

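RNA was measured in 8 hTERT-RPE1 libraries, 2 in each of 4 groups. The deposited values are FPKM per library, with ratio columns that the authors made from them, per the file headers. The ratios matched the quotients of the FPKM columns to within 0.01% in all 80826 values. TopHat and StringTie are named in the submitters' processing notes with builds hg38 and hg19, and the gene table is on hg38, per the labels. The treatment of reads shared between genes, and whether strand was used in counting, are not given in the sources used here. Libraries were directional and depleted of ribosomal RNA, per the labels' protocols.

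The members and lists were chosen with earlier results of these data known. Because the values are FPKM, limma 3.58.1 in R 4.3.3 (lmFit, eBayes with trend) was fitted to log2(FPKM + 1) of all 13471 genes and 8 libraries, with a coefficient for each group, no filter and 4 residual degrees of freedom. P-values were adjusted by Benjamini-Hochberg within each of 5 comparisons. The fit was also run on simulated data with the same spread for every gene, which checks the code and not the error rates in these data. Genes were matched to GENCODE 29 by symbol (12678) or older symbol (483), 97.7% in all, and coordinates of genes are from it. No member shares its file interval with another gene of the table. Promoter windows are from RefSeq. In each list and comparison, up to 3 called genes with the largest absolute log2 fold change were eligible to be named, and not every eligible gene is described. Some values are given beyond this rule, among them those of LSM1, LSM3, LSM5, LSM6 and XRN1 in the interphase IP.

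Alternatives were pseudocounts of 0.1 and 0.5, a filter at a mean of 1 FPKM, quantile normalization, median centring, rescaling to equal FPKM sums (as TPM), smooth trends with transcript length and GC content removed from each library (mgcv), a replicate block, the compared groups alone, and each library left out. Equal FPKM sums and removed trends were also applied to the lists, to ATM and to the named list genes, a step chosen after seeing the data. The table of lncRNAs was not used here.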

Additional observations from a re-analysis of the deposited data

Results flagged for a closer look

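For 3 of the 6 genes the effect of the IP differed between mitosis and interphase by the interaction test in limma, n = 2 libraries a group. CASP8AP2 had a difference of -2.19 (SE 0.24, adjusted p 0.000188), SLBP of -0.64 (SE 0.13, adjusted p 0.00316) and LSM10 of 0.94 (SE 0.23, adjusted p 0.00997). Over all genes 47.1% were called in this test, so 3 of 6 is near the rate of the table. The call for LSM10 was lost with equal FPKM sums (0.79, adjusted p 0.0553) and without the length and GC trends (-0.15, adjusted p 0.615). On the deposited scale the sign was the same in both replicate pairs of each gene. Groups of 2 libraries are too small for a search for outlying samples.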

How the results depend on the processing

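Of the 30 log2 fold changes of the 6 genes, those below changed direction or call, and the cause was not tested. With quantile normalization CASP8AP2 in the mitotic IP was 0.0425, LSM11 in mitosis without IP 0.0016, and ERI1 between phases in the IP 0.36. With median centring SLBP in the interphase IP was 0.0572 and CASP8AP2 in the mitotic IP 0.0599. With equal FPKM sums (as TPM) the interphase IP gave 1.64 for SLBP and -0.35 for LSM10, the mitotic IP 0.66 for SLBP, 0.44 for LSM10 and 1.28 for CASP8AP2, their difference 0.79 for LSM10, mitosis without IP -0.53 for NPAT, and mitosis in the IP 0.48 for LSM10, -0.52 for LSM11 (adjusted p 0.0263) and 0.28 for ERI1. With length and GC trends removed, with or without the replicate block, the interphase IP gave 0.69 for SLBP, 0.18 for LSM10 and 0.22 for ERI1, the mitotic IP 0.0338 for LSM10 and -0.75 for CASP8AP2, their difference 0.31 for NPAT, -0.15 for LSM10, 0.26 for LSM11 and 0.72 for ERI1, mitosis without IP 0.22 for LSM10, and mitosis in the IP 0.0703 for LSM10. With 1 library left out, where the lone library of a group is assumed to vary like the others, LSM11 in mitosis without IP ran from -0.15 to 0.0236, CASP8AP2 in the mitotic IP from -0.11 to 0.0431, LSM10 between phases in the IP from 0.50 to 0.78, and the difference for LSM11 from -0.31 to 0.0396.

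The labels give replicates a number only. Deviations of same-numbered libraries correlated between groups at 0.088 to 0.528, so the pairing was not taken as given. The replicate block changed no call of the 6 genes, with 5, 5, 3, 3 and 5 called, and moved the calls over all genes from 10051 to 10374 in the interphase IP. Equal FPKM sums moved the calls in mitosis without IP from 6963 to 4459, and moved the share of calls that were higher from 50.4% to 89.5% in the interphase IP, from 50.9% to 97.2% in the mitotic IP, from 57.8% to 39% for their difference and from 58.3% to 40.2% for mitosis in the IP. The median over all genes then shifted to 1.24, 1.00, -0.16 and -0.13. Median centring put the medians of the 2 IP effects at 0.14 and 0.10. With 2 libraries a group and unknown depth, small differences may not be detectable.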
